A study of Mus musculus with 6 samples.

Results

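The cells described here are naive mouse embryonic stem cells with the largest share of counts in 8 genes scored as WNT pathway targets. WNT signalling itself was not measured. Cells of the LIF_2i culture were chosen by measured values. In each of 2 libraries, 1 from the line R1 and 1 from the line IB10, cells with 10000 to 200000 counts were ranked by the summed share of their counts in 8 genes: Sp5, Axin2, Cdx1, T, Nkd1, Notum, Bmp4 and Tnfrsf19. Each library was divided by this rank into 4 groups of nearly equal size, and the top one, called the high group below, held 38 R1 cells and 46 IB10 cells. That is 84 of the 339 LIF_2i cells in the counting range, of 376 LIF_2i wells and of 1128 wells in the whole series. The bottom groups, of the same size, served as the comparison, and all genes outside the score were compared between them with the line as a block.

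Both lines are established embryonic stem cells of the mouse, and RNA of sorted single cells was counted by a plate-based 3′-end method with molecular identifiers (UMIs, short random tags that mark single molecules). All cultures were serum-free with LIF, on gelatin- and serum-coated plastic. LIF_2i cells also had 3 µM CHIR99021, which inhibits GSK3, and 0.1 µM PD325901, which inhibits MEK; R1 was at passage 24 and IB10 at passage 28. Rosette_LIM cells had 0.1 µM PD325901 and 2 µM of the inhibitor IWP2, which stops cells from secreting WNT, over 6 passages of R1 (to passage 28) and 5 of IB10 (to passage 33). Primed_4d cells had 2 µM IWP2 together with Activin A at 20 ng/ml and FGF2 at 12 ng/ml for 4 days, at passage 24 in R1 and 28 in IB10. Each culture had 1 library per line, and no label tells of separate cultures within a line. With the line or library as a block, p-values below rest on how the high minus low difference varied between libraries. They also rest on the spread of all genes, and not on separate cultures.

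In the WNT pathway, beta-catenin is marked for destruction by a complex that contains AXIN proteins, APC and the kinase GSK3. When a WNT ligand binds its receptors, or when GSK3 is inhibited by a drug, beta-catenin accumulates, enters the nucleus and acts with TCF/LEF factors on target genes. In mouse embryonic stem cells this activity relieves repression by TCF7L1 and helps to keep the naive state, and several targets encode inhibitors that feed back on the pathway.

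The score separated the groups as the ranking requires. Its median in the high group was 407 CPM (counts of the named genes per 1000000 non-ERCC counts) in R1 and 273 CPM in IB10, against 122 and 80.0 CPM in the low group. The cell with the lowest score inside the R1 high group was at 353.8 CPM and the next cell outside it at 353.0 CPM, and the same border in IB10 lay between 226 and 225 CPM. The low groups ended at 173 CPM in R1 and 113 CPM in IB10, with the next cells at 175 and 116 CPM. These shares rest on few molecules: the median high cell held 16.0 score counts in R1 and 12 in IB10, and the median low cell 4 and 3. Over all cells in range the median score was 247 CPM in R1 and 161 CPM in IB10, so the IB10 high group began below the R1 median. It was 99.1 (R1) and 82.9 CPM (IB10) in rosette_LIM, and 37.3 and 31.5 CPM in primed_4d. The plot of cell scores shows that the scores of a library formed 1 continuous range with no gap at the border.

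**Figure D1:**
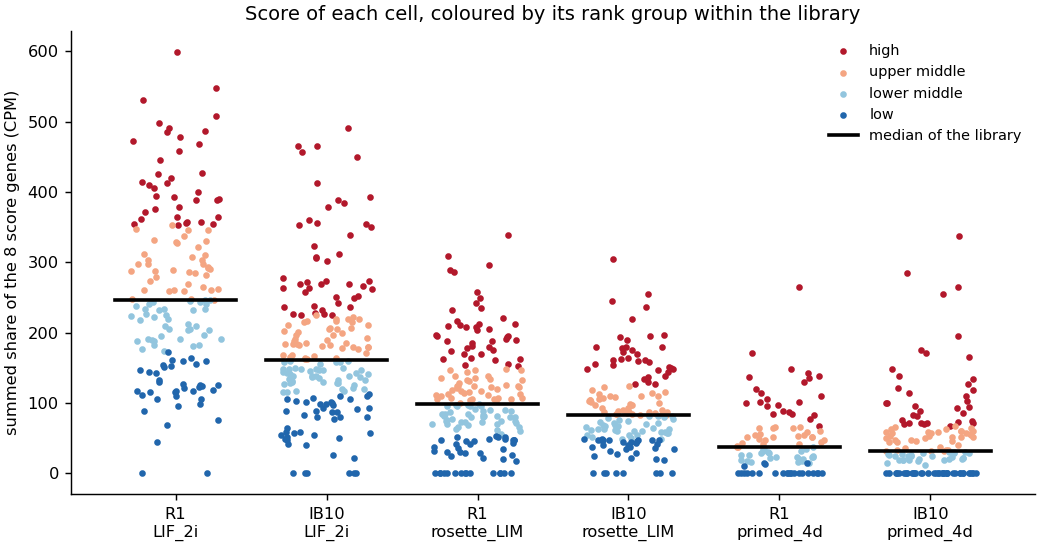
Summed share of the 8 score genes (CPM, vertical axis) in each cell with 10000 to 200000 counts, for the 6 libraries; colours mark the group within the library and black lines the library medians. LIF_2i medians are 247 CPM in R1 and 161 CPM in IB10, and the groups meet without a gap.

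The median cell had 36978 counts in the high and 33706 in the low group of R1, and 37428 and 37591 in IB10. The summed counts were about 1595270 and 1233290 in R1, and 1855530 and 1707340 in IB10. ERCC spike-ins took 1.50% and 1.75% of the R1 counts and 1.39% and 1.42% of the IB10 counts, in the high and low group respectively, and mitochondrial transcripts 9.83% and 9.32% in R1 and 10.6% and 11.0% in IB10. Genes of chromosome 8 took 5.15% of counts in the R1 high group, 5.54% and 5.60% in the middle groups and 5.61% in the low group, while IB10 was between 4.41% and 4.47% in all 4. The part of chromosome 8 in the R1 differences below was not tested. No well had the same values as another.

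Of the score genes, the transcription factor genes Sp5, Cdx1 and T are direct targets of the pathway. Because these genes chose the cells, their levels are a description without a test. Sp5, a zinc finger gene, was at 84.1, 30.8, 21.4 and 8.92 CPM from the high to the low group of R1, and at 48.0, 23.2, 11.0 and 7.61 CPM in IB10. Cdx1, a caudal homeobox gene, was at 90.9, 85.1, 61.0 and 29.2 CPM in R1 and at 59.8, 38.6, 23.5 and 10.5 CPM in IB10. The mesoderm gene T (brachyury) was rare, at 11.9 CPM in the R1 high group (19 counts) and 1.62 CPM in the low group (2 counts), and at 4.85 and 1.17 CPM in IB10. Sp5 was thus concentrated in the high group of both lines, whereas Cdx1 was nearly as high in the next group of R1. Sp5 made 20.0% of the score counts of the R1 high group against 14.0% over all R1 cells in range, and 15.6% against 12.5% in IB10.

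Axin2, Nkd1 and Notum encode inhibitors of the pathway: a scaffold of the destruction complex, a binder of Dishevelled, and a secreted enzyme that removes the lipid from WNT ligands. Axin2 was at 62.7 CPM in the high and 21.9 CPM in the low group of R1, and at 32.3 and 9.37 CPM in IB10. Notum was at 89.7 and 43.8 CPM in R1 and at 86.8 and 26.9 CPM in IB10, and it was the largest single part of the IB10 score (28.2% of score counts in the high group). Nkd1 was at 4.39 and 0.811 CPM in R1 but at 2.69 and 3.51 CPM in IB10, where the high group held 5 counts and the low group 6, so it was not higher in the IB10 high group. The signalling ligand gene Bmp4 was at 50.2 and 11.4 CPM in R1 and at 44.2 and 5.86 CPM in IB10, and Tnfrsf19, which encodes a TNF receptor family member, at 26.3 and 7.30 CPM in R1 and at 28.6 and 9.96 CPM in IB10. Over all cells in range, Notum was at 66.5 (R1) and 53.9 CPM (IB10) in LIF_2i and at 73.1 and 58.6 CPM in rosette_LIM, where it made 66.3% and 65.0% of the score. Sp5 was at 38.3 and 22.4 CPM in LIF_2i and at 1.91 and 1.76 CPM in rosette_LIM, and Axin2 at 40.0 and 19.9 CPM against 4.69 and 5.49 CPM. In primed_4d, Notum was at 11.7 and 15.4 CPM and Sp5 at 0.662 and 1.78 CPM. In the rosette_LIM high groups Notum made 64.7% (R1) and 60.7% (IB10) of the score counts, whereas no gene made more than 28.2% in those of LIF_2i.

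The promoters of Sp5 and T are shown because both are known direct TCF/LEF targets and both hold the letters that these factors bind. The windows are RefSeq sequences on GRCm38.p6, from 250 bases before to 50 bases after the annotated start, 5′ to 3′ on the gene's strand, and capitals mark, on either strand, the letters CTTTG followed by an A or a T at each of the next 2 positions. The Sp5 window is chr2:70474673-70474972 and the T window is chr17:8434173-8434472, both on the plus strand.
Sp5: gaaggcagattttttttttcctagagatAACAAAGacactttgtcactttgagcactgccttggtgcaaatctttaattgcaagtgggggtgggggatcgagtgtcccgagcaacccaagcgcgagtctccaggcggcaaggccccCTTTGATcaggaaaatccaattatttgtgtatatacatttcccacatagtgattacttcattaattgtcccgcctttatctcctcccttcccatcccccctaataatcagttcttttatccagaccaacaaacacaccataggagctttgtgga
T: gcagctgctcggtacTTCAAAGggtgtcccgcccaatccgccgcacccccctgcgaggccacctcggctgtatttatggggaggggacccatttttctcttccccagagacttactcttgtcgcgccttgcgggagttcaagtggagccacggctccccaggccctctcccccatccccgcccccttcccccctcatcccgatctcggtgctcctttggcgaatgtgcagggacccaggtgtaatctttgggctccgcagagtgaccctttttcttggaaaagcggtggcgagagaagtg
Sp5 held 2 matches, which began at -222 and -104 relative to the start, and T held 1, which began at -235. Of the 8 score genes, 6 had a window in the table used, and 3 of these held a match in at least 1 window (Sp5, T and Tnfrsf19). Of all 32851 windows, 16.9% held such a match, so the letters are common, and a match describes the sequence without showing binding.

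The cells of a library spread more in the score than counting error gives. The variance of the summed score counts was 1.82 times the variance expected from counting error at each cell's depth in R1 and 2.00 times in IB10, where 1 would mean counting error alone. The same ratio was 1.34 and 1.11 in rosette_LIM and 1.67 and 1.92 in primed_4d. It was not computed for genes outside the score, so whether the score spread more than other genes of like level is not known. Among single genes it was highest for Sp5 in both LIF_2i libraries (2.37 in R1 and 2.26 in IB10), with Cdx1 at 1.46 and 2.09, Bmp4 at 1.98 and 1.93, and Axin2 at 1.26 and 1.42. T was at 1.22 and 1.10 and Nkd1 at 0.849 and 1.00, on 18 to 39 counts a library. Correlations between the score genes were weak. Across the 28 gene pairs, Pearson's r of the shares over cells ranged from -0.09 to 0.29 in R1 (155 cells, median 0.04) and from -0.16 to 0.26 in IB10 (184 cells, median -0.0014). Sp5 and Axin2 gave 0.29 in R1 and 0.17 in IB10, Sp5 and T 0.18 and 0.26, and Axin2 and T 0.18 and 0.25. Notum gave values between -0.11 and 0.11 with each of the other 7 genes in both lines. These correlations are over cells of 1 library each, which share its preparation, and with so few counts per cell they describe sparse data only.

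Each score gene was then tested independently of its own level, by ranking the cells on the other 7 genes and comparing its counts between the resulting groups (edgeR's quasi-likelihood test, Benjamini-Hochberg adjustment over all genes of that fit). With Sp5 left out, the high group had 57.5 CPM of Sp5 and the low group 30.5 CPM in R1, and 32.1 and 17.3 CPM in IB10. Both lines gave more Sp5 in the high group, by 0.90 ± 0.22 (SE) on the log2 scale, with an unadjusted p of 0.000122 and an edgeR adjusted p of 0.0814 over 9316 genes, which missed the threshold of 0.05. Axin2 was at 47.4 and 31.7 CPM in R1 and at 26.5 and 20.2 CPM in IB10, a log2 difference of 0.49 ± 0.23 (edgeR adjusted p = 0.614). The other 4 testable genes lay close to 0: Cdx1 at 0.02 ± 0.18, Notum at 0.02 ± 0.16, Bmp4 at -0.11 ± 0.24 and Tnfrsf19 at 0.05 ± 0.29 (edgeR adjusted p of 0.991, 0.995, 0.989 and 0.998). The range of 2 standard errors around the difference ran from -0.34 to 0.39 for Cdx1 and from -0.29 to 0.33 for Notum. T (10.2 and 4.07 CPM in R1, 3.30 and 1.17 CPM in IB10) and Nkd1 had too few counts to be tested. So 0 of the 6 testable score genes passed with edgeR, 2 had an unadjusted p under 0.05 (Sp5 and Axin2), and DESeq2 also passed 0, while limma on log2(CPM + 5) passed Sp5 (adjusted p = 0.0431). Over all genes of these fits, edgeR called 0.129% with Sp5 left out, 0.192% with Axin2 left out, 0.0532% with Cdx1, 0% with Notum, 0% with Bmp4 and 0.0424% with Tnfrsf19. Ranked by only 5 genes, with Bmp4 and Tnfrsf19 also left out, Sp5 differed by 1.60 (edgeR adjusted p = 0.00978). Ranked by the other 7 genes in the fit of all 6 libraries described below, Sp5 differed by 0.88 without the R1 LIF_2i library. Without that of IB10 it differed by 0.90.

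**Figure D2:**
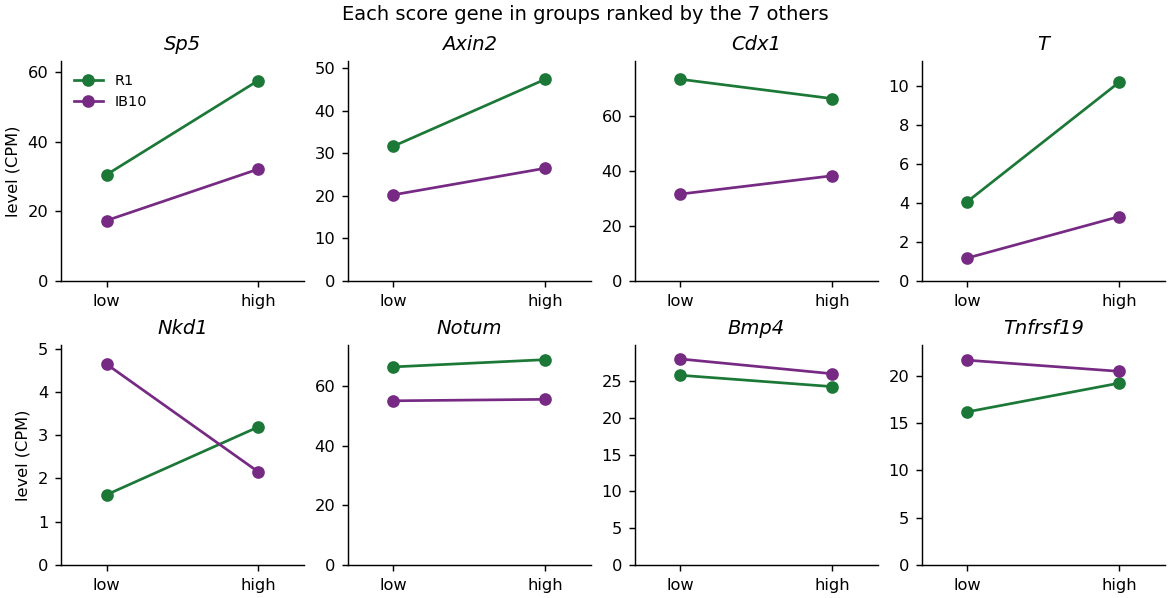
Level of each score gene (CPM, vertical axis) in the low and high group of LIF_2i cells when the cells are ranked by the 7 other score genes; green points are R1 and purple points IB10, 1 library each. Sp5, Axin2 and T slope upward in both lines, whereas Cdx1, Nkd1 and Tnfrsf19 slope in opposite directions in the 2 lines.

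Across the 9376 other genes tested in the high against the low group, 3 fell and 0 rose (edgeR adjusted p under 0.05; 0.032% and 0% of the genes tested). At an unadjusted p under 0.05, edgeR had 334 lower genes (3.56%) and 271 higher genes (2.89%). The comparison had 4 sums of counts, 1 residual degree of freedom and 51.1 prior degrees of freedom taken from the spread of all genes. DESeq2 on the same sums called 0 genes, with 18 at an unadjusted p under 0.05, and limma on log2(CPM + 5) called 4 lower and 0 higher. Without the block for line edgeR called 0 genes, and it also called 0 when cells were ranked within 4 bins of depth. It called 0 as well when cells were thinned to 10000 counts each and ranked again on the thinned counts. Thinned groups can thus hold other cells, and they were ranked on fewer score counts. After thinning 6020 genes were tested, Bnip3 among them, while Peg10 and Anxa2 had too few counts to be tested.

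Bnip3, which encodes a mitochondrial protein of mitophagy that is known to be induced by hypoxia-inducible factors, gave the smallest p. Its level in R1 was 21.3, 39.9, 29.5 and 81.2 CPM from the high to the low group, and 22.1, 15.8, 21.6 and 45.7 CPM in IB10. In each line the low group stood above the other 3, which had no common order in the lines. The mean was 21.7 ± 0.56 (SD, n = 2 libraries) CPM in the high and 63.5 ± 25.1 CPM in the low group, and Bnip3 fell by 1.50 ± 0.21 (SE) on the log2 scale (edgeR adjusted p = 4.66e-05). Of the 100.1 Bnip3 counts of the R1 low group 22.1 came from 1 cell, and without that cell the level was 65.4 CPM, against 19.1 CPM in the high group without its own largest cell. Under ranking within depth bins the difference of Bnip3 was -1.10 (edgeR adjusted p = 0.247). After thinning and ranking again it was -0.51 (edgeR adjusted p = 0.997). In the fit of all 6 libraries described below it was -1.05 without the R1 LIF_2i library and -1.91 without that of IB10.

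Peg10, an imprinted gene derived from a retrotransposon, was at 13.8, 16.4, 7.37 and 49.6 CPM from the high to the low group of R1 and at 8.08, 12.5, 10.6 and 23.4 CPM in IB10. It fell by 1.71 ± 0.28 on the log2 scale (edgeR adjusted p = 0.000579; 10.9 ± 4.04 against 36.5 ± 18.5 CPM, SD, n = 2 libraries). A single cell gave 57.5% of the Peg10 counts in the R1 low group. Without that cell the R1 low group was at 21.7 CPM, against 12.4 CPM in the high group without its own largest cell. Anxa2, which encodes a calcium-dependent membrane-binding protein, was at 9.40, 9.16, 13.4 and 31.6 CPM in R1 and at 1.62, 4.18, 4.32 and 9.96 CPM in IB10. Its difference of -1.94 ± 0.39 passed (edgeR adjusted p = 0.0198) on 15 against 39.0 counts in R1 and 3 against 17 in IB10. The fit of all 6 libraries described below was also run without 1 LIF_2i library. There Peg10 differed by -1.53 without R1 and by -1.82 without IB10, and Anxa2 by -2.56 and -1.73. Anxa2 did not pass in that fit with both lines kept (edgeR adjusted p = 0.234). Under ranking within depth bins the difference of Peg10 was -0.60 (edgeR adjusted p = 0.79), and under the 3-marker ranking described below -0.43 (edgeR adjusted p = 0.95). On GRCm38, Bnip3 lies on chromosome 7 from 138890836 to 138909519, Peg10 on chromosome 6 from 4747306 to 4760517 and Anxa2 on chromosome 9 from 69453620 to 69491795.

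The Bnip3 promoter is shown because this gene gave the smallest p and is a textbook target of hypoxia-inducible factors. The window is chr7:138909457-138909756 on the minus strand, from the same RefSeq table. Capitals mark matches to ACGTG on either strand, a form of the core of the hypoxia response element. Only this form was searched for, and it was chosen after the Bnip3 values had been seen.
Bnip3: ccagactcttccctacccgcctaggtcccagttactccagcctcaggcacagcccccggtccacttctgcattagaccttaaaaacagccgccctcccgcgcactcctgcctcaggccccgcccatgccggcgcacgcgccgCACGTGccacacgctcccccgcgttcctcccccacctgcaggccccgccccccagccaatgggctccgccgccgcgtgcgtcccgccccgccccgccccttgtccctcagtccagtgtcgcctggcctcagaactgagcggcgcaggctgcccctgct
The matches on the 2 strands overlap and begin at -108 and -107 relative to the start. These letters stood in 19.6% of all 32851 windows. Among the glycolytic genes described below the window of Pgk1 held 2 matches, 1 window of Ldha held 5 and its other window 0, and the window of Pfkp held 0. Among the score genes, the window of Bmp4 and 1 window of Tnfrsf19 held 2 each. The windows of Sp5, Axin2, T and Nkd1 and the other window of Tnfrsf19 held 0.

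Since fewer than 5 genes passed in each direction, the genes of smallest p with the same sign in both lines are also given, although none passed. Zfp428, a zinc finger gene, was at 166, 140.2, 133 and 122 CPM from the high to the low group of R1 and at 145, 116, 112 and 93.8 CPM in IB10 (log2 0.53 ± 0.13, edgeR adjusted p = 0.121). The imprinted long noncoding RNA Meg3 was at 215, 204, 185 and 179 CPM in R1 and at 170.0, 152, 131 and 101 CPM in IB10 (0.49 ± 0.12, edgeR adjusted p = 0.138). Etv5, an ETS transcription factor gene downstream of FGF signalling, was at 431, 388, 361 and 344 CPM in R1 and at 367, 357, 308 and 279 CPM in IB10 (0.35 ± 0.09, edgeR adjusted p = 0.178). Their levels were ordered with the score over all 4 groups in both lines. The de novo DNA methyltransferase gene Dnmt3b was at 107 against 64.9 CPM in R1 and at 110.04 against 80.9 CPM in IB10 (0.56 ± 0.15, edgeR adjusted p = 0.183). Cenpm, which encodes a centromere protein, was at 202 against 140.4 CPM in R1 and at 266 against 208 CPM in IB10 (0.42 ± 0.11, edgeR adjusted p = 0.178). On the lower side, the autophagy receptor gene Calcoco2 was at 217, 239.9, 263 and 339.6 CPM from high to low in R1 and at 183, 189, 198 and 224 CPM in IB10 (-0.48 ± 0.10, edgeR adjusted p = 0.0711). Pgk1, a glycolytic enzyme gene, was at 405 against 513 CPM in R1 and 345 against 463 CPM in IB10 (-0.39 ± 0.09, edgeR adjusted p = 0.0769). Most of these differences were smaller once cells were thinned to 10000 counts and ranked again on the thinned counts. They were -0.03 for Calcoco2, -0.15 for Pgk1, 0.13 for Meg3, 0.12 for Dnmt3b, 0.18 for Etv5 and 0.26 for Cenpm. Zfp428 was at 0.67 on the log2 scale. The thinned groups were ranked on fewer score counts, so depth and the change of groups cannot be told apart. Calcoco2 was also at -0.16 with a score without Bmp4 and Tnfrsf19 and at -0.29 without R1, and Meg3 at 0.29 without IB10.

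**Figure D3:**
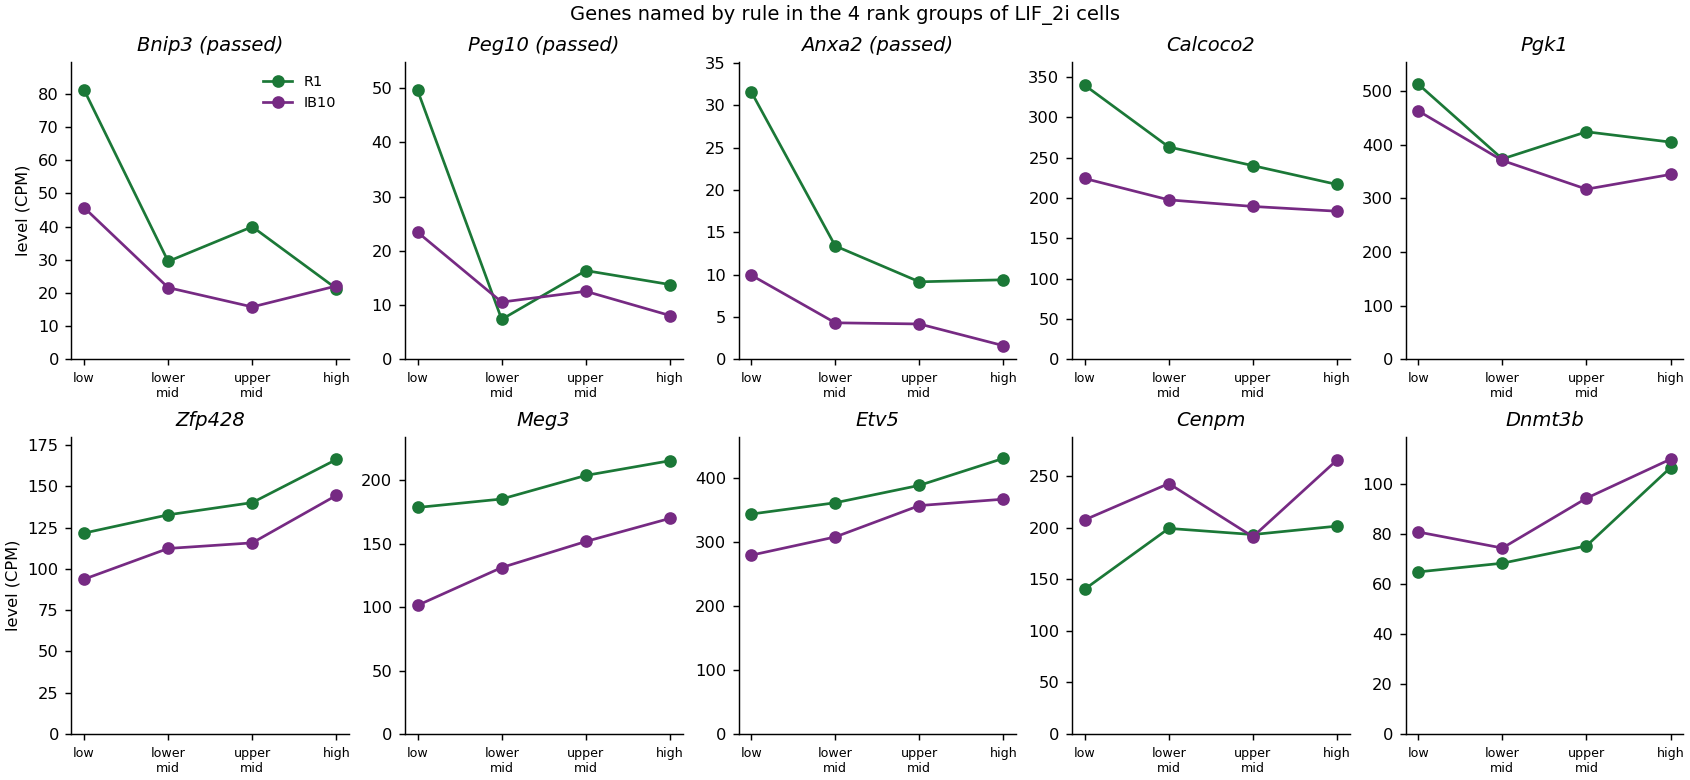
Level (CPM, vertical axis, from 0) of the genes named by rule in the low, lower middle, upper middle and high group of LIF_2i cells, with R1 in green and IB10 in purple, 1 library each. Bnip3, Peg10 and Anxa2 are raised in the low group compared with the other 3, and Zfp428, Meg3 and Etv5 climb from low to high in both lines.

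Genes of the WNT pathway outside the score showed no call. Of 29 further targets and feedback genes, 14 had enough counts to be tested and 0 passed (edgeR; 1, Sfrp1, had an unadjusted p under 0.05; 0% rose and 0.032% fell among all genes). Their median log2 difference was 0.16, against -0.01 over all 9376 genes tested, and 8 of the 14 were higher in both lines, as were 2418 of the 9376. The list's median was 0.04 under the 3-marker ranking described below, and 0.09 after thinning, when 6 members could be tested. With ranking within depth bins it was 0.25, with 11 of 14 tested members positive and 0 passing with edgeR. At an unadjusted p under 0.05, 3 members were then higher and 1 lower, as were 270 and 329 of all 9357 genes. Ccnd1, the cyclin D1 gene, was at 354 and 339.5 CPM in the high and low group of R1 and at 304 and 262 CPM in IB10 (0.13 ± 0.09, edgeR adjusted p = 0.882). Sall4, a pluripotency factor gene, was at 311 and 300.4 CPM in R1 and at 339 and 281 CPM in IB10 (0.16 ± 0.10, edgeR adjusted p = 0.836). Sfrp1, which encodes a secreted WNT antagonist, was at 115 and 156 CPM in R1 and at 131 and 139.5 CPM in IB10 (-0.26 ± 0.13, edgeR adjusted p = 0.772). Mycn gave 0.17 ± 0.13 and the R-spondin receptor gene Lgr4 0.20 ± 0.22 (edgeR adjusted p of 0.915 and 0.979). The TCF/LEF genes Lef1 and Tcf7 had 1.17 to 12.5 CPM in every group compared. Of 35 genes of WNT secretion, receptors and nuclear factors, 20 were tested and 0 passed (edgeR; 1, the receptor gene Fzd10, at an unadjusted p under 0.05), with a median of 0.01. The beta-catenin gene Ctnnb1 was at 436 and 406 CPM in R1 and 437 and 407 CPM in IB10, and the repressor gene Tcf7l1 at 240.5 and 266 CPM in R1 and 341 and 312 CPM in IB10.

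No pluripotency gene passed the test. Over all 9376 genes tested, 2.89% were higher and 3.56% lower at an unadjusted p under 0.05 (edgeR). All 22 naive pluripotency genes were tested and 0 passed (edgeR; 3 higher and 2 lower at an unadjusted p under 0.05), with a median of -0.01. Esrrb was at 432 and 424 CPM in the high and low group of R1 and at 519 and 487 CPM in IB10, Zfp42 at 1237 and 1285 CPM and at 1049 and 1052 CPM, and Klf4 at 305 and 296 CPM and at 269 and 300.5 CPM. Tfcp2l1, a naive transcription factor gene, was at 358.1 and 358.3 CPM in R1 and at 495 and 538 CPM in IB10. The members with an unadjusted p under 0.05, named for that reason after their values had been seen, were Klf5 (0.26 ± 0.09), Dppa3 (1.16 ± 0.41) and Gbx2 (0.93 ± 0.26) on the higher side and Tbx3 (-0.27 ± 0.11) and Fbxo15 (-0.35 ± 0.11) on the lower side, with edgeR adjusted p between 0.237 and 0.686. Of 12 core genes 0 passed (edgeR; 2 at an unadjusted p under 0.05, both higher), among them Pou5f1 (643 and 507 CPM in R1, 586 and 564 CPM in IB10) and the RNA-binding protein gene Lin28a (90.9 and 56.8 CPM in R1, 70.1 and 48.0 CPM in IB10, 0.60 ± 0.16, edgeR adjusted p = 0.186). Of 14 tested formative and primed genes 0 passed (edgeR; 3 higher and 0 lower at an unadjusted p under 0.05: Dnmt3a, Dnmt3b and Etv5), with a median of 0.20. A list of 18 genes that an earlier analysis of these same libraries found lower in rosette_LIM, and that is no independent evidence, had 16 tested members, 0 called by edgeR (3 higher at an unadjusted p under 0.05) and a median of 0.12.

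In the glycolysis list, all 14 tested members of a list of 15 had a negative fitted difference, with a median log2 difference of -0.27 against -0.01 over all genes. None passed with edgeR, 8 had an unadjusted p under 0.05 on the lower side (3.56% of all genes did), and 12 of the 14 were lower in both lines, as were 2383 of all 9376 genes. With ranking within depth bins the list's median was -0.20, with 12 of the 14 negative and 0 passing with edgeR. There 7 members had an unadjusted p under 0.05 on the lower side, as did 329 of all 9357 genes. After thinning the median was -0.08, with 11 of the 14 negative. Then 0 passed with edgeR and 2 had an unadjusted p under 0.05 on the lower side. Ldha, the lactate dehydrogenase gene, was at 492 and 700.4 CPM in the high and low group of R1 and at 374 and 429.6 CPM in IB10 (-0.36 ± 0.09, edgeR adjusted p = 0.121). Pfkp, a phosphofructokinase gene, was at 163 and 232 CPM in R1 and at 131 and 173 CPM in IB10 (-0.46 ± 0.11, edgeR adjusted p = 0.146). Tpi1 gave -0.35 ± 0.11 and the glucose transporter gene Slc2a1 -0.34 ± 0.14, whereas Gapdh (-0.09 ± 0.08) and Pgam1 (-0.06 ± 0.08) lay close to 0, and Hk2 was lower in R1 and higher in IB10. Of 11 tested p53 targets 0 passed (edgeR; 0 higher and 4 lower at an unadjusted p under 0.05), with a median of -0.13. Ccng1, a cyclin gene, was at 216 and 226 CPM in R1 and at 219 and 309 CPM in IB10, and Trp53inp1 at 123 and 103 CPM in R1 and at 87.3 and 159 CPM in IB10, so the gap was wider in IB10 for Ccng1, and the lines had opposite signs for Trp53inp1. Mdm2, the inhibitor of p53, was at 86.6 and 108 CPM in R1 and at 91.7 and 115 CPM in IB10, and Btg2, an antiproliferative gene, gave -0.50 ± 0.24 (edgeR adjusted p of 0.698 and 0.767). Cdkn1a, the best-known target, was at 205 and 214 CPM in R1 and at 139.7 and 117 CPM in IB10.

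**Figure D4:**
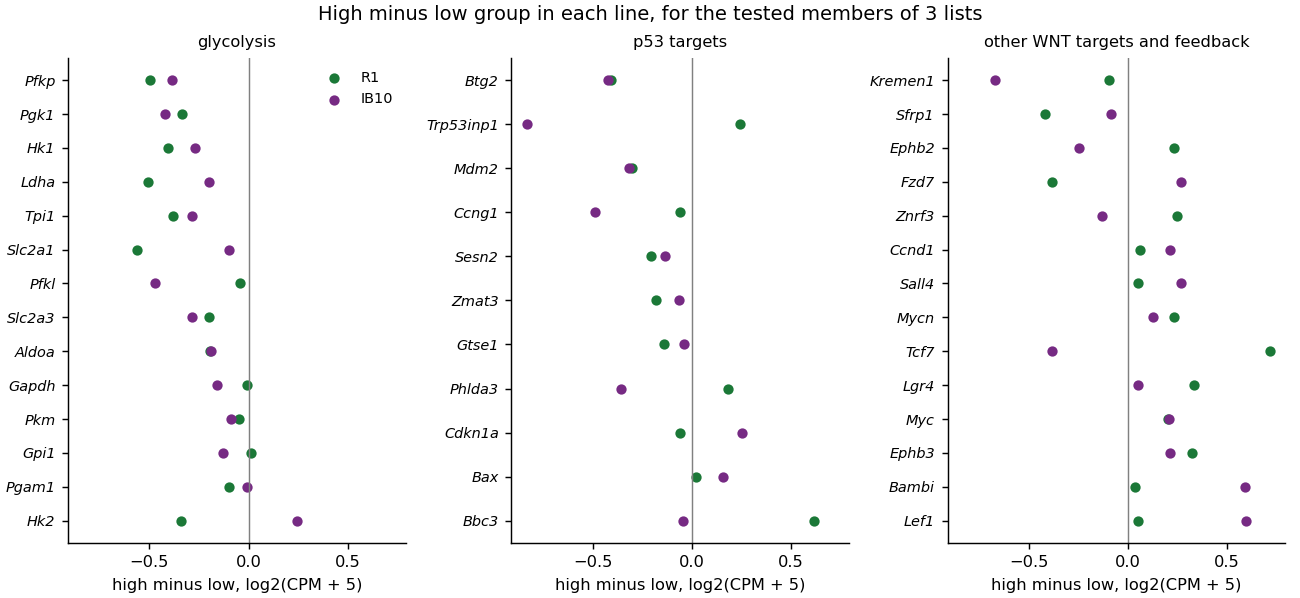
High minus low group on the log2(CPM + 5) scale (horizontal axis) for the tested members of 3 lists, with R1 in green and IB10 in purple, 1 library each; members are ordered by the fitted log2 difference. In the glycolysis panel 12 of 14 genes lie left of 0 in both lines, and in the panel of other WNT targets 8 of 14 lie right of 0 in both.

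Ranking by the 3 markers Sp5, Axin2 and Cdx1 alone chose partly other cells: 26 of 38 high and 23 of 38 low cells of R1 were shared with the 8-gene groups, and 30 and 24 of 46 in IB10. The 3-marker high groups were deeper than the low ones, with median counts of 38071 against 30670 in R1 and 43029 against 39303 in IB10. Of 9506 genes, 7 rose (0.0736%) and 15 fell (0.158%) with edgeR, and 1 of the 22, Bnip3, was also called under the 8-gene ranking. DESeq2 called 0 genes, with 17 at an unadjusted p under 0.05. With limma 6 genes were called higher and 11 lower, of which 5 and 10 were among the 22. Without the line block edgeR called 0 and 0, and after thinning it called 0 higher and 1 lower gene, which was not among the 15. With ranking inside depth bins 5 rose and 7 fell. The fit of all 6 libraries described below called 0 higher and 3 lower. The calls of this ranking thus also depended on the model.

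Among the 15 lower genes of the 3-marker ranking were Bnip3 (33.2 against 82.4 CPM in R1 and 19.5 against 33.5 CPM in IB10, edgeR adjusted p = 0.000766) and the glycolytic genes Pfkp (-0.59 ± 0.11, edgeR adjusted p = 0.000183) and Pgk1 (-0.38 ± 0.09, edgeR adjusted p = 0.0108). The collagen lysyl hydroxylase gene Plod2 (-0.86 ± 0.17, edgeR adjusted p = 0.000766) and the stress-responsive gene Ndrg1 (-1.26 ± 0.33, edgeR adjusted p = 0.0498) were others. Of the p53 targets, Mdm2 was at 97.1 against 140.5 CPM in R1 and 72.1 against 126 CPM in IB10 (-0.68 ± 0.14, edgeR adjusted p = 0.00107), Ccng1 fell by 0.48 ± 0.10 and Trp53inp1 fell by 0.54 ± 0.13 (edgeR adjusted p of 0.00148 and 0.0298). Trp53inp1 was higher in the R1 high group (111 against 106 CPM) and lower in that of IB10 (81.6 against 165 CPM), and Cdkn1a was at 241 against 239.5 CPM and 134 against 122 CPM. Of 11 tested p53 targets 3 were called and of 14 glycolytic genes 2, against 0.158% lower genes in all. The X-linked homeobox gene Rhox5 gave the smallest p, with 122 against 62.5 CPM in R1 and 145 against 88.9 CPM in IB10 (0.80 ± 0.14, edgeR adjusted p = 0.000109), while under the 8-gene ranking it differed by 0.26 (edgeR adjusted p = 0.814). The other risers were Zfp428 (0.61 ± 0.13), Pim1 (0.60 ± 0.14), Foxp4 (0.80 ± 0.20), Dnmt3b (0.60 ± 0.15), Lin28a (0.66 ± 0.17) and Epb4.9 (0.74 ± 0.19). Pim1 is a kinase gene induced by LIF through STAT3, and it was at 116 against 101 CPM in R1 and 146 against 75.0 CPM in IB10. The score genes outside these markers did not choose the cells here, and 3 of them could be tested. Notum gave 0.07 ± 0.17, Bmp4 0.40 ± 0.25 and Tnfrsf19 -0.25 ± 0.30 (edgeR adjusted p of 0.987, 0.906 and 0.96), and none passed.

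The cell cycle lists differed little and without a common direction. The summed S phase list was at 4524 CPM in the high and 4518 CPM in the low group of R1 and at 4613 and 4955 CPM in IB10, and the G2/M list at 3429 and 3660.2 CPM in R1 and at 3564 and 3243 CPM in IB10. Of 17 tested S phase genes and 18 G2/M genes, 0 passed with edgeR, and 1 of each had an unadjusted p under 0.05. The 10 primitive endoderm markers summed to 235 and 272 CPM in R1 and to 321 and 305 CPM in IB10, with Sox7 at 0 in 3 of the 4 sums, and the 7 mesendoderm markers to 19.4 and 14.6 CPM in R1 and 27.5 and 26.4 CPM in IB10, with Foxa2 and Mesp1 at 0 in all 4. The 9 feeder fibroblast markers summed to between 611 and 673 CPM, with Col1a2, Col3a1 and Lum at 0 in all 4. Fn1 alone gave between 371 and 430 CPM of this sum. The 9 trophectoderm markers summed to between 68.1 and 92.5 CPM, with Hand1 at 0 in all 4. The 9 measured 2-cell markers summed to between 217 and 257 CPM, but only 2 to 4 of them had any counts in a group. Zscan4d, Zscan4f, Tcstv3, Usp17lc and Tdpoz4 were at 0 in all 4. The neuroectoderm markers summed to 84.0 and 77.9 CPM in R1 and to 91.6 and 56.2 CPM in IB10.

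The same split in the other cultures was fitted over 12 sums, the top and bottom group of each of the 6 libraries, with a block for library. In rosette_LIM, edgeR called 0 of 9885 genes higher (0%) and 0 lower (0%), with 405 at an unadjusted p under 0.05. Bnip3 was at 31.8 and 31.6 CPM in the high and low group of R1 and at 60.3 and 68.0 CPM in IB10 (-0.10 ± 0.22, edgeR adjusted p = 1), and Peg10 gave -0.20 ± 0.41. In this fit the LIF_2i differences were -1.49 ± 0.22 for Bnip3 (edgeR adjusted p = 0.00172) and -1.71 ± 0.31 for Peg10 (edgeR adjusted p = 0.0187). Anxa2 no longer passed, at -1.95 ± 0.44 (edgeR adjusted p = 0.234). The fit called 3 LIF_2i genes lower, and the one besides Bnip3 and Peg10 was Dio3 (-3.09 ± 0.55, edgeR adjusted p = 0.0187). Dio3 was at 3.13 and 48.9 CPM in the high and low group of R1 and at 2.16 and 5.27 CPM in IB10. The difference between LIF_2i and rosette_LIM itself passed for 0 genes in either direction (0% and 0%), with 400 at an unadjusted p under 0.05, and was -1.39 ± 0.32 for Bnip3 (edgeR adjusted p = 0.393). A difference between these cultures was therefore not shown.

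In primed_4d, where the median high cell held 5 score counts in R1 and 3 in IB10, 50 genes rose (0.506%) and 17 fell (0.172%). Depth moved with this split: the median IB10 cell had 27814 counts in the high and 18430 in the low group, and every cell of the IB10 low group had a score of 0, as did 44 of 147 cells of that library. The part of depth in the result was not tested. Thinning left 10 higher and 0 lower genes, all 10 among the first 50. It also ranked the cells again on fewer score counts, so it cannot tell depth from the change of groups. The genes given next were chosen after their values had been seen. Tdh, a threonine dehydrogenase gene of naive cells, was at 175 against 56.9 CPM in R1 and 126 against 47.1 CPM in IB10 (1.52 ± 0.16, edgeR adjusted p = 9.25e-07). Zfp42 (1.33 ± 0.15), Klf2 (1.11 ± 0.14), Klf4 (1.89 ± 0.37), Esrrb (1.10 ± 0.20) and Fbxo15 (1.44 ± 0.22) also rose, as did Dnmt3l (0.81 ± 0.19), Tcf15 (0.77 ± 0.17) and Tdgf1 (0.49 ± 0.10). Dnmt3l was at 138 against 135 CPM in R1 and 316 against 109 CPM in IB10, so its gap was almost all in IB10. The naive transcription factor gene Tfcp2l1 did not pass (0.60 ± 0.42, edgeR adjusted p = 0.723). The POU factor gene Pou3f1 fell by 0.68 ± 0.12 (edgeR adjusted p = 0.00188). In LIF_2i none of these genes passed, with Tdh at 0.12 ± 0.09, Zfp42 at -0.03 ± 0.10, Klf2 at 0.01 ± 0.10 and Fbxo15 at -0.34 ± 0.11.

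The difference between the LIF_2i and the primed_4d split passed for 5 genes in the higher (0.0506%) and 21 in the lower direction (0.212%). Of the genes named above it was -1.69 ± 0.39 for Peg10 (edgeR adjusted p = 0.0475), -1.51 ± 0.27 for Bnip3 (edgeR adjusted p = 0.00485), -0.54 ± 0.12 for Pgk1 (edgeR adjusted p = 0.0475) and 0.98 ± 0.16 for Dnmt3b (edgeR adjusted p = 0.00183). Bnip3 in primed_4d was at 109.8 and 137 CPM in the high and low group of R1 and at 283 and 236 CPM in IB10. Dnmt3b was at 784 and 998 CPM in R1 and at 673 and 936 CPM in IB10, lower in the high group of both. Tdh (-1.40 ± 0.19), Zfp42 (-1.36 ± 0.18), Klf2 (-1.09 ± 0.17) and Fbxo15 (-1.79 ± 0.24) also passed. With cells thinned to 10000 counts and ranked again, 0 differences passed in either direction (edgeR, with 312 at an unadjusted p under 0.05).

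**Figure D5:**
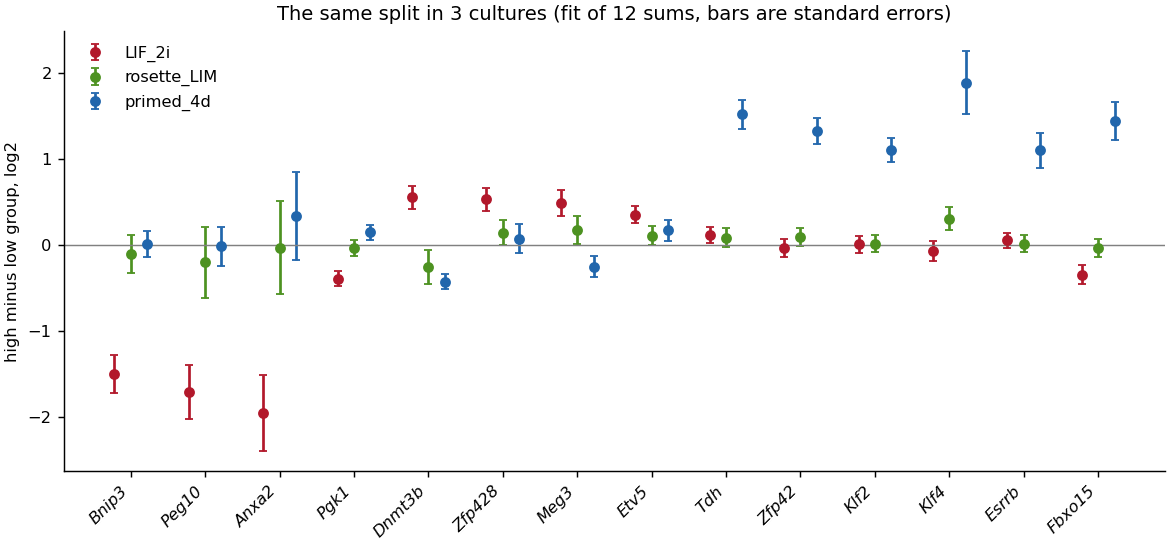
High minus low group (log2, vertical axis, bars are standard errors) for 14 genes in LIF_2i (red), rosette_LIM (green) and primed_4d (blue), from 1 fit of 12 sums. Bnip3, Peg10 and Anxa2 lie below -1 in LIF_2i and between -0.20 and 0.34 in the other cultures, and Tdh, Zfp42, Klf2, Klf4, Esrrb and Fbxo15 lie above 1 in primed_4d and between -0.34 and 0.31 in the others.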

How the data were processed

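The authors' deposited table holds 1 expected count per gene and well (UMI counts corrected for molecules that share a tag): each of the 1296 distinct values above 0 lay within 0.006 of the collision-corrected value of some whole number of distinct tags, with 4096 possible 6-base tags. Per the submitters' processing notes, reads were aligned with BWA to mm10/GRCm38; for aligner version and gene annotation, nothing is given in the sources used here. Per the labels, each sample had 192 wells with 4 left empty, and 188 columns per library were used. All columns mapped to a sample.

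ERCC rows (91) were kept out of totals and tests. LIF_2i wells outside 10000 to 200000 counts were left out (31 under and 2 over in R1, 4 under in IB10); no doublet caller was run. Cells in range totalled 5848460 counts in R1 and 7798350 in IB10. Counts were summed over the cells of each group, since cells are not replicates, rounded, and tested two-sided with edgeR 4.0.16 in R 4.3.3 (TMM, filterByExpr with a minimum count of 10, quasi-likelihood, Benjamini-Hochberg over all genes tested, threshold 0.05). Score genes stayed in the totals and out of the tested rows. Line was a block because the groups of a line come from the same library. With 2 libraries per group an exact permutation test cannot go below p = 0.333 and was not run. DESeq2 1.42.0, limma 3.58.1 on log2(CPM + 5), and other rankings, filters and scalings were alternatives. Thinned cells were ranked again on the thinned counts. To leave out a line, its LIF_2i library was taken out of the fit of all 6 libraries, not of the fit of 4 sums. The spread in those fits came partly from the other cultures. Errors of log2 differences are standard errors derived from edgeR's test.

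Genes were named by rule: the score genes, up to 10 called genes per direction with the same sign in both lines, filled to 5 by smallest p, the 5 most abundant of the other WNT targets, and any called list member. The cells, the 26 gene lists (353 genes) and the rule were chosen with earlier results of these data known. Coordinates are GRCm38 positions of GENCODE M21, matched by symbol for 365 of 380 genes, and promoter windows are from RefSeq on GRCm38.p6. How reads of overlapping or antisense genes were counted was not stated, so such genes cannot be told apart.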

Additional observations from a re-analysis of the deposited data

Results flagged for a closer look

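These results were picked out because the high minus low difference itself differed between LIF_2i and primed_4d, by a test of that difference (edgeR contrast over 12 sums, adjusted p under 0.05). The difference of differences was -1.69 for Peg10, -1.51 for Bnip3, 0.98 for Dnmt3b and -0.54 for Pgk1. Over all 9885 genes it passed for 5 in the higher and 21 in the lower direction. In primed_4d the median IB10 cell had 27814 counts in the high and 18430 in the low group. With every cell thinned to 10000 counts and ranked again, 0 genes passed in either direction.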

How the results depend on the processing

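Of the single values, 276 kept their direction and side of the threshold, 26 no longer passed, 10 newly passed and 12 changed sign; of the counts, 49 stayed within 1.5 times and 48 did not. The causes were not tested. With no replicate block for the line (a number marks the same cell line in every culture), the count of 3 lower genes was 0; it was also 0 with DESeq2, 2 rank groups instead of 4, ranking within depth bins and a score without Bmp4 and Tnfrsf19. It was 0 after thinning to 10000 counts, where 6020 genes were tested and Peg10 and Anxa2 were not. The count was 8 with no rescaling, 7 with no filter, 5 with 20000 to 100000 counts per cell and 15 with the 3 markers. Without either line it ranged from 0 (without R1) to 2. The higher genes (0) were 3 with no rescaling, 1 with no filter, 7 with the 3 markers and 0 to 1 without a line. The score genes passing when left out (0) were 1 with no rescaling, with limma and with the score without Bmp4 and Tnfrsf19.

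The alternatives to the 3-marker ranking, the other cultures' thinning and their omitted libraries were chosen after seeing the data. The counts of 7 higher and 15 lower genes of the 3-marker ranking were 0 and 0 with no replicate block and with DESeq2, 0 and 1 after thinning, and 0 and 3 in the fit of all 6 libraries. Within depth bins 7 were lower. Without a line there were 0 to 1 higher and 0 to 3 lower. In rosette_LIM, leaving out a library gave 0 to 1 in each direction. In primed_4d it gave 14 to 27 higher and 2 to 7 lower genes, and thinning 10 and 0. For LIF_2i minus rosette_LIM it gave 0 to 1 in each direction. For LIF_2i minus primed_4d it gave 2 to 4 higher and 12 to 24 lower genes, and thinning 0 and 0.

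The sign changed for Ccnd1 after thinning (-0.13) and for some score genes ranked by the others, none of which passed. Cdx1 was at -0.0030 without Bmp4 and Tnfrsf19, at -0.068 with 20000 to 100000 counts, and between -0.15 and 0.27 without a line. Notum was between -0.015 and 0.060 without a line. Bmp4 was at 0.058 when the top and bottom of 3 rank groups were compared and at 0.144 with 2. Tnfrsf19 was at -0.090 with 3 groups, -0.121 with 2, -0.017 within depth bins, -0.034 with 20000 to 100000 counts, and between -0.096 and 0.24 without a line. With 2 libraries per group, and counts of T, Nkd1 and Anxa2 as low as 1 to 3 in some groups, small differences of rare genes were not detectable at this depth.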

Other observations

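Gene groups not described above also held no called member, with edgeR. Of all 9376 genes tested, 2.89% were higher and 3.56% lower at an unadjusted p under 0.05. Of 17 primitive streak and mesendoderm genes 3 had enough counts to be tested (0 at an unadjusted p under 0.05, median log2 difference 0.16), and of 15 CDX and HOX genes 4 (0, median -0.03). Among 13 LIF/STAT3 targets 3 were higher at an unadjusted p under 0.05 and 0 lower, with a median of -0.01. Over the list 6 fitted differences were positive and 7 negative. The 3 were Pim1, the LIF receptor gene Lifr and Gbx2. Lifr was at 53.9 and 32.4 CPM in the high and low group of R1 and at 49.0 and 36.3 CPM in IB10. Gbx2 was at 37.0 and 18.6 CPM in R1 and at 26.9 and 14.6 CPM in IB10. Of 11 tested FGF/ERK targets 2 were higher and 0 lower at that level (median 0.10), of 9 BMP/SMAD and ID genes 1 and 1 (median -0.04), and of 8 Nodal/Activin targets 1 and 2 (median -0.03). All 16 measured cholesterol synthesis genes were tested, with 0 at an unadjusted p under 0.05 and a median of -0.04, and so were the 12 mitochondrially encoded genes, with 0 and a median of -0.03. Of 7 tested dissociation and heat stress genes, 0 were higher and 1 lower at that level (median -0.11). Of 5 tested genes that rose in rosette_LIM in an earlier analysis of these libraries, 0 reached it (median 0.11).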
